A study of Sus scrofa with 15 samples.

Results

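The testis of the young male pig makes androgens in its Leydig cells, and 10 genes of that work were taken here by name: LHCGR, STAR, CYP11A1, FDX1, CYP17A1, CYB5A, HSD3B1, HSD17B3, SRD5A1 and INSL3. Of these 10, 7 were found under their symbol among the 30476 genes of the deposited count table, and the members described are STAR, CYP11A1, FDX1, CYP17A1, CYB5A, HSD17B3 and INSL3. Another 2, LHCGR and SRD5A1, were present only under an Ensembl identifier, and they are shown beside the members but are not counted with them. HSD3B1 was not analysed here.

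Androgen synthesis starts when luteinizing hormone, arriving from the pituitary, binds its receptor (LHCGR) on the Leydig cell and raises cAMP inside it. Cholesterol is then carried into the mitochondrion by the steroidogenic acute regulatory protein (STAR), where the side-chain cleavage enzyme (CYP11A1), fed with electrons by ferredoxin (FDX1), makes pregnenolone. In the endoplasmic reticulum the 17-hydroxylase/17,20-lyase (CYP17A1), whose lyase step is helped by cytochrome b5 (CYB5A), makes the androgen precursors that HSD17B3 turns into testosterone and SRD5A1 can reduce further, while the peptide hormone INSL3 leaves the same cells and guides testis descent. The testis of the boar is known for its large output of steroids soon after birth, estrogens and sulfated steroids among them.

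RNA was sequenced from whole testes of male piglets (White-Dutch Landrace by 1 name the study uses, from Dutch Landrace Duroc sows by its methods) for 5 diets, each with 3 piglets and a library for every piglet, fed from postnatal day 2 to day 21, when the testes were taken. The Sow group drank sow milk from bowls, the Milk group a cow's milk formula and the Soy group a soy formula. M + E2 was the same cow's milk formula with 17-beta-estradiol (E2) added at each feeding, as a positive control for estrogen, and M + G was that formula with the soy isoflavone genistein at 84 mg/L, which the study's methods give as the level in the diet and the labels as that in serum. All 15 piglets suckled before the diets began, and the methods state that they came from many litters born on the same day, so p-values here measure the spread between piglets. In whole tissue, fewer Leydig cells and less RNA per Leydig cell cannot be told apart.

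The libraries held 6097552 to 9488579 reads on genes. Levels are CPM, the reads of a gene scaled to a common normalized library size, and levels of different genes were not compared because transcript lengths were not used. Differences are log2 values from edgeR's quasi-likelihood test over 15634 genes, and a gene was called when its p, adjusted over all of them by the method of Benjamini and Hochberg, was 0.05 or lower and its change at least 2-fold. Library Sow 2 stood apart, with correlations below 0.9 in 4 pairs of libraries. The tests leave it out, as the study's methods did, so that Sow has 2 libraries there, while levels below include it. The Sow and Soy groups each have a library that carries no number.

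The 7 members took between 1.87% and 3.50% of the reads of a library. In M + E2 their share was 1.96 to 2.16%, and every M + E2 library lay below every Sow library (3.01 to 3.50%), every M + G library (2.56 to 2.68%) and every Soy library (2.32 to 3.32%). In Milk the share ran from 1.87 to 3.26%, with Milk 2 at its low end. Abundant genes weigh most in this share. CYB5A, which the quasi-likelihood test did not call, had 10433 to 23992 CPM in Sow and 4039 to 5044 CPM in M + E2. Of all single genes, 62.3% had a gap in either direction between M + E2 and Sow (without Sow 2). Such a gap was found for 19.2% between M + E2 and M + G and for 20.6% between M + E2 and Soy. All 9 rows passed the filter on low counts, with no member lost to it.

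LHCGR, the receptor at the head of the pathway, lies on chromosome 3 from 91964415 to 92023821 (Sscrofa11.1, RefSeq), where it overlaps GTF2A1L. In Sow it measured 157, 129 and 192 CPM (the unnumbered library, then Sow 2 and Sow 3), and in Milk 186, 78.3 and 171 CPM. Soy had 189, 247 and 268 CPM, M + E2 188, 182 and 150 CPM, and M + G 177, 129 and 140 CPM. Soy stood highest and Milk 2 lowest, and the M + E2 libraries lay within the range of Sow. The difference between M + E2 and Sow was −0.08 (95% interval −0.74 to 0.59, adjusted p = 0.884, edgeR), and that between Soy and Milk was 0.72 (0.13 to 1.32, adjusted p = 0.999). The Soy and Milk libraries did not overlap for LHCGR, as was true of 4.62% of all genes.

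STAR, on chromosome 15 from 48377597 to 48385398, was low in M + E2. The Sow libraries had 3888, 3801 and 3089 CPM and the Milk libraries 5308, 1783 and 3279 CPM. The Soy libraries had 4596, 4492 and 3533 CPM and the M + G libraries 3672, 3573 and 3196 CPM. The M + E2 libraries had 1324, 1702 and 787 CPM. STAR was the single member for which each of the 3 M + E2 libraries lay below each of the 12 others, the nearest being Milk 2. Among all genes tested, 354 (2.26%) had this pattern. Mean levels were 1271 ± 460 CPM in M + E2 (SD, n = 3) and 3593 ± 439 CPM in Sow (SD, n = 3), and the order from the highest mean was Soy, Sow, M + G, Milk and M + E2.

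CYP11A1, on chromosome 7 from 59172829 to 59188479, makes the first steroid of the pathway. Its levels were 3075, 3198 and 2944 CPM in Sow, 2889, 1145 and 2816 CPM in Milk, and 2411, 2990 and 1972 CPM in Soy. They were 1603, 1721 and 1176 CPM in M + E2 and 2550, 2283 and 2294 CPM in M + G. All M + E2 libraries were below all of Sow, Soy and M + G, but Milk 2 was below all of M + E2. Sow varied least of the 5 diets in CYP11A1, with a coefficient of variation of 4.14%, and Milk most, with 43.2%.

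FDX1, the mitochondrial electron carrier for CYP11A1, lies on chromosome 9 from 38376147 to 38399026 and overlaps the RefSeq gene LOC110262223. It measured 1801, 2372 and 1389 CPM in Sow, 1697, 952 and 1056 CPM in Milk, and 1433, 1265 and 682 CPM in Soy. The values were 732, 699 and 563 CPM in M + E2 and 1311, 1284 and 969 CPM in M + G. The M + E2 libraries lay below all others but Soy 3. Mean FDX1 fell in the order Sow, Milk, M + G, Soy and M + E2, and each neighbouring pair overlapped.

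CYP17A1, on chromosome 14 from 113805616 to 113820445, where it overlaps BORCS7, differed little between M + E2 and Sow. The Sow libraries had 7551, 6029 and 6784 CPM and the M + E2 libraries 6913, 6705 and 5993 CPM. Milk spanned 3581 to 9967 CPM, Soy 7213 to 10985 CPM and M + G 7533 to 9152 CPM. The M + E2 libraries lay below all Soy and M + G libraries and within the range of Milk. They overlapped those of Sow, with M + E2 3 just below the lowest, Sow 2.

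CYB5A, on chromosome 1 from 149737584 to 149773222, varied widely within diets. It measured 12281, 23992 and 10433 CPM in Sow, 11605, 7420 and 5120 CPM in Milk, and 11064, 6845 and 3522 CPM in Soy. In M + E2 it was 4245, 4039 and 5044 CPM, and in M + G 5429, 7649 and 4107 CPM. Sow 2 was the highest library of all, Soy 3 the lowest, and M + E2 overlapped Soy and M + G. The coefficient of variation was 47.2% in Sow, 40.8% in Milk, 52.9% in Soy and 31.2% in M + G, but 11.9% in M + E2.

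HSD17B3, the testicular enzyme that completes testosterone, lies on chromosome 10 from 25822913 to 25866871. Its levels were 331 to 483 CPM in Sow, 191 to 290 CPM in Milk, 129 to 336 CPM in Soy, 228 to 355 CPM in M + E2 and 160 to 260 CPM in M + G. The mean of M + E2 was second to that of Sow, so HSD17B3 was the one member for which M + E2 did not have the lowest mean.

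SRD5A1, which reduces testosterone to dihydrotestosterone, lies on chromosome 16 from 75309830 to 75335438. It measured 129, 101 and 117 CPM in Sow, 152, 65.1 and 219 CPM in Milk, and 182, 292 and 268 CPM in Soy. It was between 103 and 104 CPM in all M + E2 libraries and 266, 102 and 163 CPM in M + G. The Soy libraries were all above those of Sow and of M + E2. Of all genes, 37.3% had no overlap in Soy against Sow (without Sow 2) and 20.6% in M + E2 against Soy. Soy exceeded Sow by 1.00 on the log2 scale (95% interval 0.04 to 1.95), which did not pass (adjusted p = 0.324, edgeR), and M + E2 was below Soy by −1.31 (−2.15 to −0.47, adjusted p = 0.189). The latter was called by edgeR's exact test (adjusted p = 2.54e-05) and by DESeq2 (0.0419).

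INSL3, on chromosome 2 from 59929591 to 59931220, is the secreted peptide of the list. Sow had 5303, 6148 and 6555 CPM and M + E2 3943, 2973 and 4942 CPM, without overlap. Milk ran from 3827 to 5928 CPM, Soy from 3784 to 6089 CPM and M + G from 2966 to 5359 CPM. Each of these 3 ranges overlapped that of M + E2.

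M + E2 had the lowest mean of the 5 diets for 6 of the 7 members, and Sow the highest for 5 (CYP11A1, FDX1, CYB5A, HSD17B3 and INSL3). The levels of STAR and CYP17A1 were highest in Soy. Of 28 pairs of diets that were neighbours in the order of a member's means, 27 had libraries that overlapped, the exception being Milk and M + E2 in STAR. Neighbours were picked by these same means, so overlap was likely, and the share over all genes was not computed. Between Milk and M + E2, 17.5% of all genes had no overlap.

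**Figure D1:**
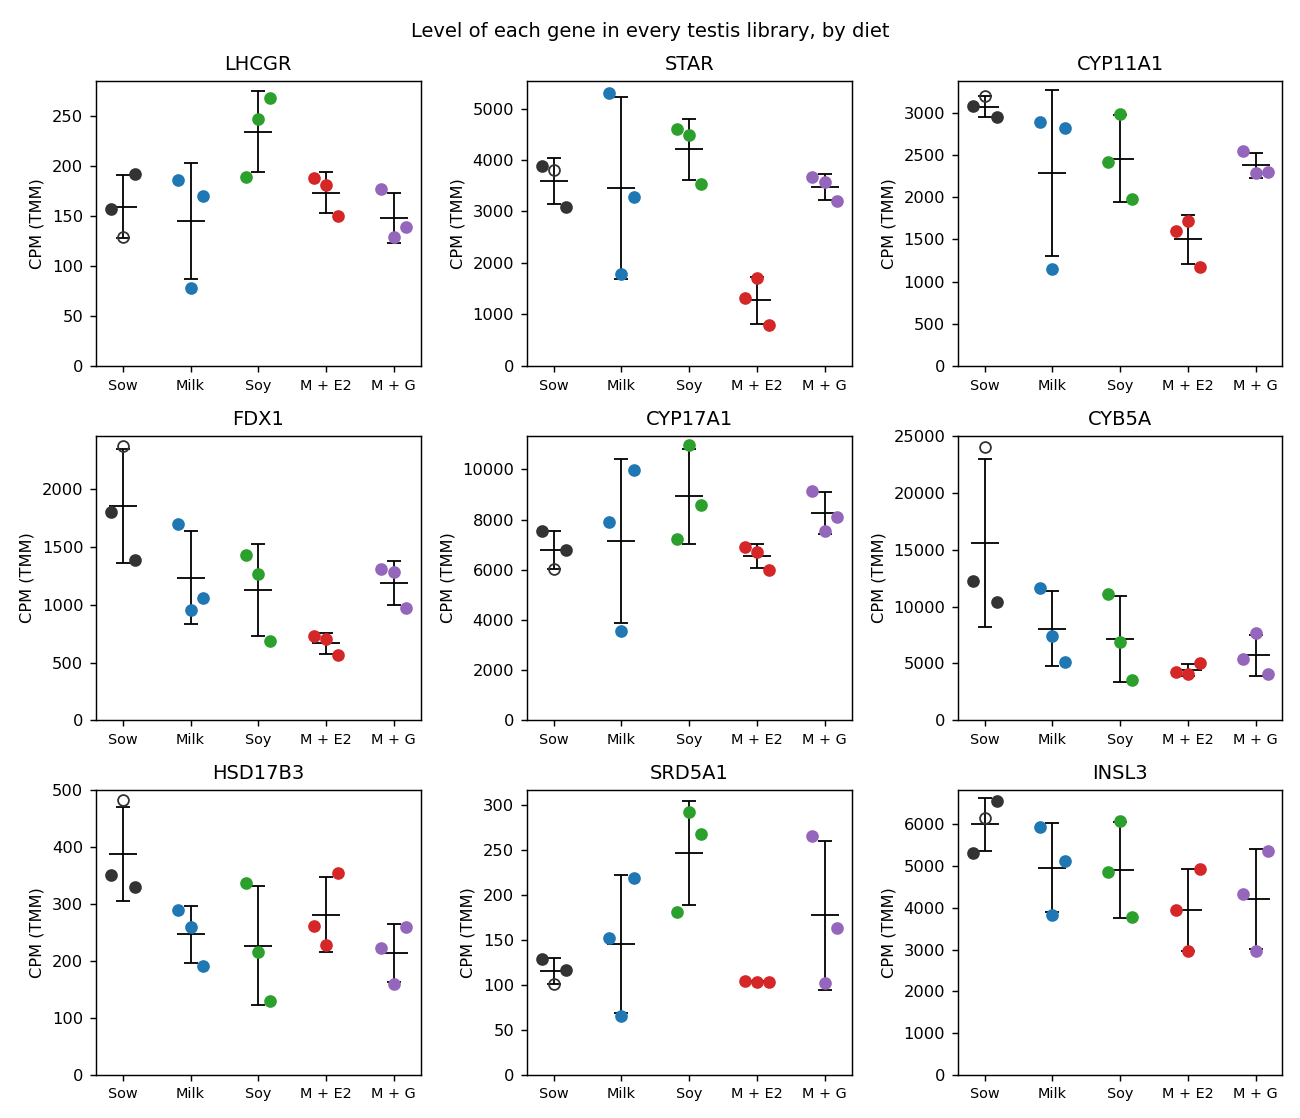
Level of each of the 9 genes in CPM (vertical axes, linear, from 0) in each library by diet, 1 point per piglet, with the mean and SD over 3 libraries as bars; the open point is Sow 2. STAR shows the 3 M + E2 libraries (787 to 1702 CPM) below all others, CYP17A1 and LHCGR do not, and Milk 2 is low in STAR, CYP11A1, CYP17A1, LHCGR and SRD5A1.

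Relative to Sow, all 7 members had lower fitted levels in M + E2, and 2 of them, STAR and FDX1, were called as lower. Over all genes tested, 5.0% were called in this comparison and 3.56% were called as lower. STAR was 2.88-fold lower (log2 difference −1.53, SE 0.41, adjusted p = 0.0449) and FDX1 2.52-fold lower (−1.33, SE 0.34, adjusted p = 0.0414), both by edgeR's quasi-likelihood test. The median difference of the 7 was −1.07 and that of all genes 0.01, of which 49.5% were lower. The libraries of 5 members did not overlap between M + E2 and Sow, and 62.3% of all genes had such a gap in this comparison of 3 libraries with 2.

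The other 5 members did not pass. At an unadjusted p below 0.05 there were 4 members, STAR, CYP11A1, FDX1 and CYB5A, beside 33.8% of all genes. CYB5A differed by −1.42 (95% interval −2.42 to −0.43, adjusted p = 0.0629) and CYP11A1 by −1.07 (−1.84 to −0.31, adjusted p = 0.0660), each at least as large as the 2-fold limit. INSL3 differed by −0.65 (−1.39 to 0.09, adjusted p = 0.198), HSD17B3 by −0.34 (−1.08 to 0.40, adjusted p = 0.503) and CYP17A1 by −0.20 (−1.03 to 0.62, adjusted p = 0.743). The intervals of INSL3, HSD17B3 and CYP17A1 included 0 but also a 2-fold lower level. SRD5A1, outside the count, differed by −0.31 (−1.24 to 0.61, adjusted p = 0.632).

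These calls turned on the libraries used. With any 1 of M + E2 1, M + E2 2 and M + E2 3 left out, 0 members were called, and 6 genes were called over the whole table. STAR then differed by −1.58, −1.79 and −1.29 (adjusted p = 0.122, 0.123 and 0.0835). With Sow 2 put back, 4 members were called (STAR, CYP11A1, FDX1 and CYB5A), and the same 4 were called by DESeq2, by edgeR's exact test, in a fit of M + E2 and Sow alone, and with Sow 2 in place of either other Sow library. The share of all genes called rose in these settings too, to 18.1% with Sow 2 put back, 8.80% by DESeq2, 12.6% by the exact test, 12.3% in the fit of M + E2 and Sow alone, and 18.4% or 21.3% with Sow 2 in place of another.

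**Figure D2:**
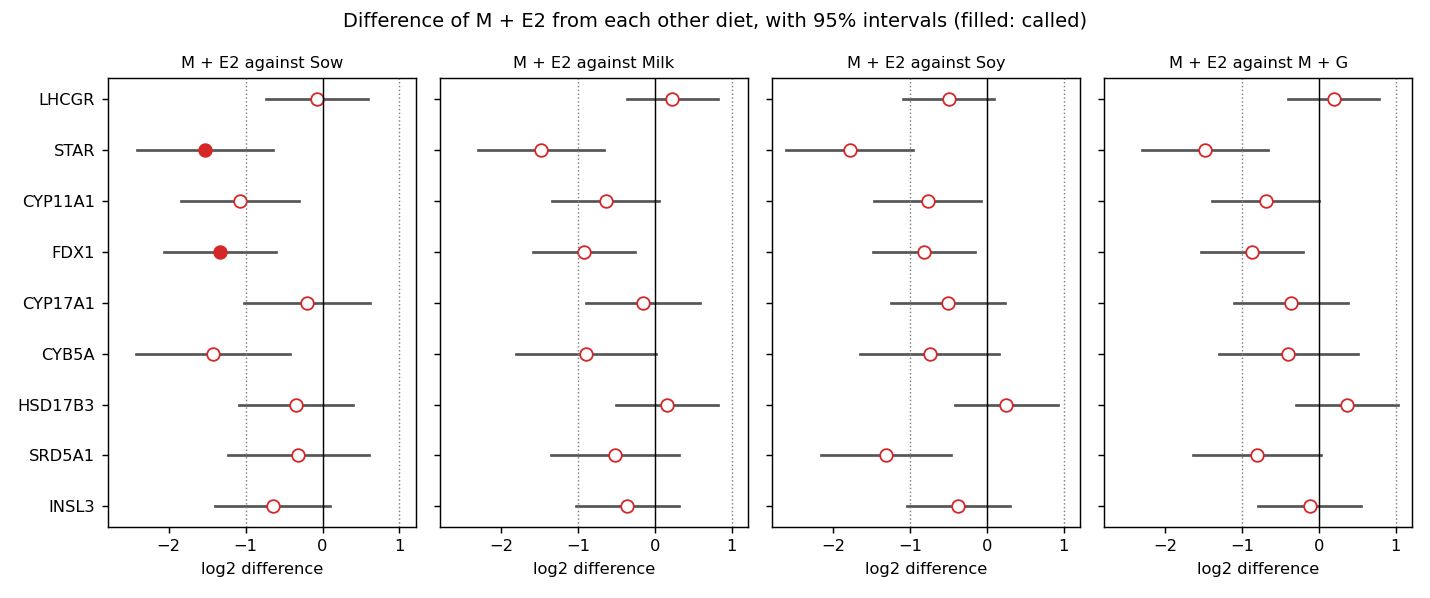
Log2 difference of M + E2 from Sow, Milk, Soy and M + G (horizontal axes) for the 9 genes, with 95% intervals from the edgeR fit; filled points were called and dotted lines mark a 2-fold change. STAR lies between −1.78 and −1.48 in all 4 panels, while LHCGR and HSD17B3 lie to either side of 0.

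Relative to the formula that E2 was added to, 0 of 7 members were called by edgeR's quasi-likelihood test, as were 0% of all genes. STAR had the largest difference among the members, −1.48 (95% interval −2.30 to −0.66, adjusted p = 0.186), followed by FDX1 with −0.92 (−1.59 to −0.26, adjusted p = 0.207). These 2 were below an unadjusted p of 0.05, as were 17.7% of all genes. CYB5A differed by −0.89 (−1.80 to 0.02), CYP11A1 by −0.64 (−1.33 to 0.06), INSL3 by −0.36 (−1.03 to 0.32), CYP17A1 by −0.16 (−0.90 to 0.58) and HSD17B3 by 0.16 (−0.50 to 0.83). The libraries did not overlap for STAR, FDX1 and CYB5A (17.5% of all genes). DESeq2 called 1 member, STAR (adjusted p = 0.0110), with 0.780% of all genes, and the exact test 0. Without Milk 3 STAR was called by the quasi-likelihood test (−1.52, adjusted p = 0.0313), and so were 1256 genes over the whole table (8.04%).

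M + E2 against Soy gave 0 members called, beside 0.147% of all genes. STAR differed by −1.78 (95% interval −2.61 to −0.96, adjusted p = 0.0987), FDX1 by −0.82 (−1.48 to −0.15) and CYP11A1 by −0.77 (−1.47 to −0.07), and these 3 were below an unadjusted p of 0.05, as were 13.0% of all genes. The libraries of 3 members did not overlap (20.6% of all genes). STAR was called by DESeq2, by the exact test and with no filter on low counts (adjusted p = 0.000217, 4.31e-05 and 0.0436), which called 0.915%, 1.39% and 0.189% of all genes. Against M + G, 0 members and 0% of all genes were called, and STAR differed by −1.48 (−2.30 to −0.66, adjusted p = 0.511). FDX1 differed from M + G by −0.87 (−1.53 to −0.20, adjusted p = 0.595), and STAR and FDX1 were the 2 members below an unadjusted p of 0.05 (7.01% of all genes). The libraries of 4 members did not overlap (19.2% of all genes). DESeq2 and the exact test called STAR there (adjusted p = 0.0297 and 6.36e-05), with 0.102% and 0.674% of all genes. The 4 comparisons of M + E2 share its 3 libraries, so their values are not independent.

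Among the diets without E2, no member was called by the quasi-likelihood test, DESeq2 or the exact test. M + G against Sow had 0 of 7 called (0.0576% of all genes), and CYB5A, at −1.02 (95% interval −2.02 to −0.03, adjusted p = 0.204), was the 1 member below an unadjusted p of 0.05 (23.6% of all genes). CYB5A was called there with Sow 2 put back (−1.44, adjusted p = 0.0393) and with Sow 2 in place of Sow 3 (−1.66, adjusted p = 0.0353). In these settings 1585 and 2039 genes were called over the whole table, against 9 without Sow 2. Soy against Sow had 0 called (0.0128% of all genes), with differences from −0.68 for CYB5A to 0.30 for CYP17A1 and 0 members below an unadjusted p of 0.05 (15% of all genes). Milk against Sow had 0 called (0.0192% of all genes), with differences from −0.53 for CYB5A to −0.04 for CYP17A1 and 0 members below an unadjusted p of 0.05 (12.1% of all genes). M + G against Milk, Soy against Milk and M + G against Soy had 0 called of the members and 0% of all genes, with 0 members below an unadjusted p of 0.05 (2.60%, 2.44% and 3.65% of all genes). The libraries of 4 members did not overlap between M + G and Sow and those of 2 between Milk and Sow, beside 53.9% and 31% of all genes. In Soy against Sow, M + G against Milk, Soy against Milk and M + G against Soy this was true of 0 members, and of 37.3%, 4.66%, 4.62% and 7.89% of all genes.

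STAR differed from Sow by −0.04 in M + G (95% interval −0.94 to 0.86), by 0.26 in Soy (−0.65 to 1.16) and by −0.05 in Milk (−0.95 to 0.85). It differed between M + G and Milk by 0.01 (−0.80 to 0.81), and of these 4 intervals that of Soy alone reached a 2-fold change. In a test of any difference among the 5 diets, 0 members passed, beside 0.0640% of all genes (10 genes, edgeR). STAR had the lowest p (adjusted 0.202), then FDX1 (0.234), and these 2 were below an unadjusted p of 0.05, as were 18.1% of all genes.

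A ratio of reads within 1 library does not depend on library size. STAR gave 0.131 to 0.254 reads for each read of CYP17A1 in M + E2 and 0.329 to 0.670 in the 12 other libraries. To CYP11A1 the ratio was 0.670 to 0.989 in M + E2 and 1.05 to 1.91 in the others. The reads of STAR relative to either enzyme were thus lower in each M + E2 library than in any other. To INSL3, the secreted peptide, it was 0.159 to 0.572 in M + E2 and 0.466 to 1.20 in the others, which overlapped. FDX1 to CYP17A1 was 0.0940 to 0.106 in M + E2 and 0.0795 to 0.393 elsewhere, and INSL3 to CYP17A1 was 0.443 to 0.825 and 0.394 to 1.07, both overlapping. CYB5A to CYP17A1 ranged from 0.411 to 3.98 outside M + E2, with Sow 2 at the top.

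**Figure D3:**
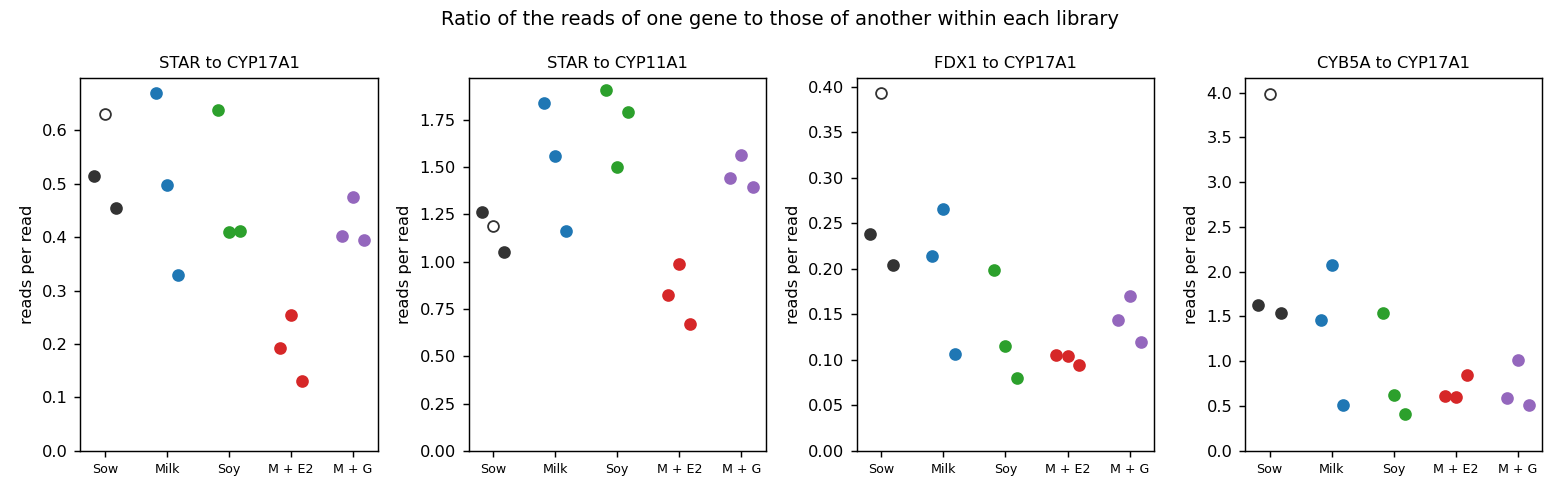
Reads of STAR, FDX1 or CYB5A per read of CYP17A1 or CYP11A1 (vertical axes, linear, from 0) in each library by diet, 1 point per piglet, with Sow 2 open. The M + E2 points lie below all 12 others for STAR to CYP17A1 (0.131 to 0.254) and STAR to CYP11A1 (0.670 to 0.989), and overlap others for FDX1 and CYB5A.

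Likeness between genes is given as Pearson correlations of log2 CPM over the 15 libraries, in which the genes of a library share its depth and diet. CYP17A1 went with SRD5A1 (r = 0.872) and LHCGR (0.765), and STAR with CYP11A1 (0.852). FDX1 went with CYB5A (0.883), CYP11A1 (0.798) and STAR (0.759), and CYB5A with HSD17B3 (0.685). CYP17A1 and CYB5A, partners in the lyase step, had r = −0.224, and CYP17A1 and HSD17B3 had −0.409. With each diet's mean taken out, CYP17A1 with SRD5A1 was 0.883, CYP17A1 with CYP11A1 0.875, FDX1 with CYB5A 0.841 and CYP17A1 with CYB5A −0.250. Before that step, INSL3 was nearest to HSD17B3 (0.586) and CYP11A1 (0.568).

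**Figure D4:**
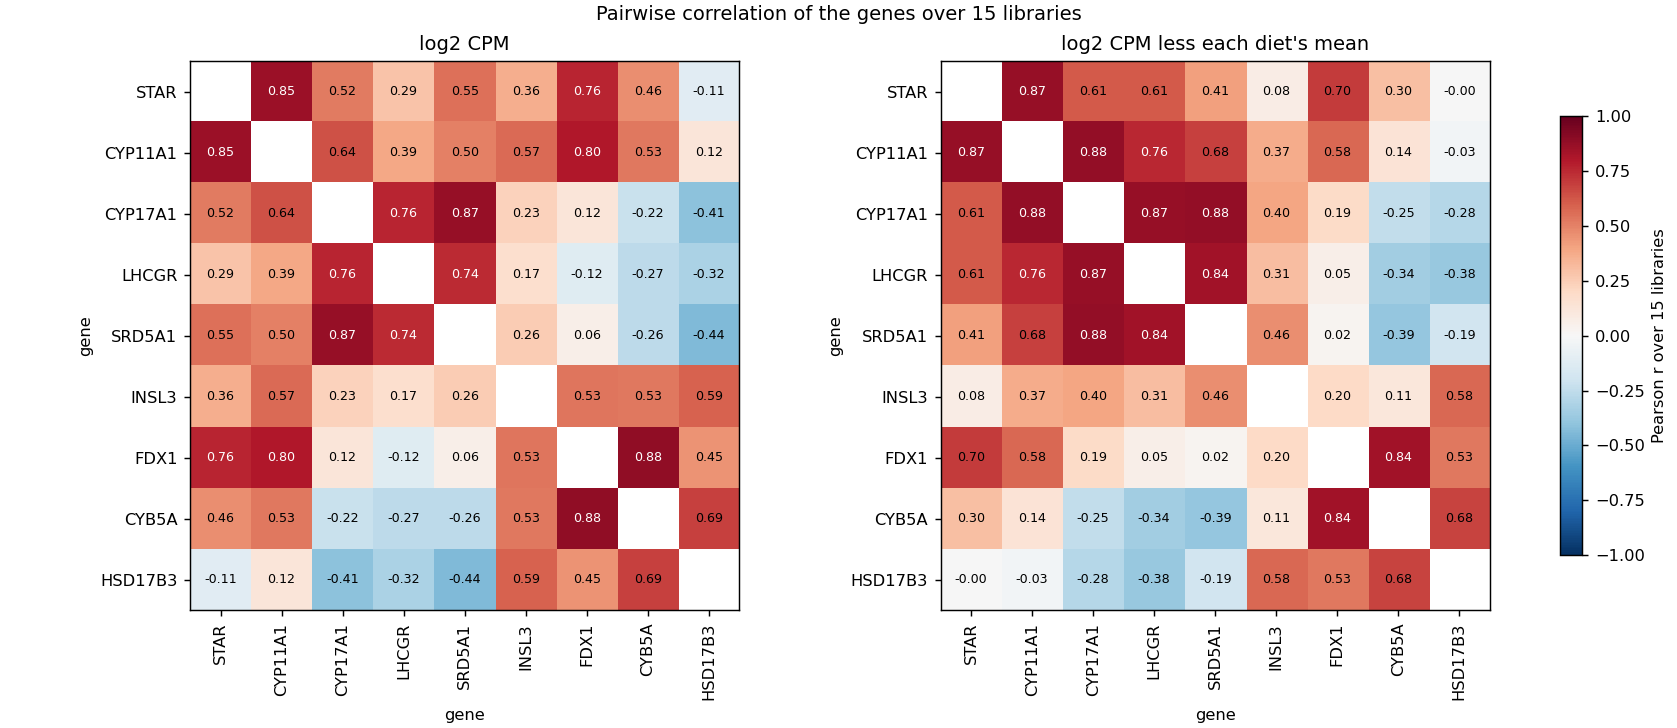
Pearson r between each pair of the 9 genes over 15 libraries, from log2 CPM (left) and after each diet's mean was taken out (right); colour runs from −1 (blue) to 1 (red). STAR with CYP11A1 (0.852), CYP17A1 with SRD5A1 (0.872) and FDX1 with CYB5A (0.883) are among the darkest red cells, FDX1 is also red with CYP11A1 and STAR (0.798 and 0.759), and the values between CYP17A1 and CYB5A (−0.224 and −0.250) are below 0.

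Milk 2 and Soy 3 had low values for several members, and markers of other cells moved with them. The summed level of 6 of 6 peritubular myoid markers (ACTA2, MYH11, DES, CNN1, TAGLN and ACTG2) was 3447 CPM in Milk 2, 4349 CPM in Soy 3 and 2431 CPM in M + G 2, against 289 to 1010 CPM in the other 12 libraries. The sum of 6 of 6 endothelial markers was 1113 CPM in Milk 2 and 1224 CPM in Soy 3, and at most 808 CPM elsewhere. Their part in the results was not tested. Without Milk 2, STAR in M + E2 against Milk was −1.79, and without Soy 3 STAR in M + G against Soy was −0.41.

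Between M + E2 and Sow, the summed levels of other marker lists did not overlap for Sertoli, germ cell, endothelial and epididymal or rete epithelium markers. The sums overlapped for myoid, macrophage, erythroid and adrenal cortex markers, and no sum was tested. Of all single genes, 62.3% had such a gap (without Sow 2), and abundant genes weigh most in a sum. In the fit, 4 of 12 Sertoli markers, 3 of 7 germ cell markers and 1 of 6 endothelial markers were lower, the rest higher. Of 4 epididymal or rete epithelium markers, 3 were lower and 1 higher. In these lists 1 Sertoli marker was called and 0 others, beside 5.0% of all genes. The summed level of 12 of 12 Sertoli markers was 3349 to 3521 CPM in M + E2 and 2325 to 2645 CPM in Sow, and at most 2676 CPM in Milk, 2478 CPM in Soy and 3483 CPM in M + G. That of 11 of 14 germ cell markers was 113 to 121 CPM in M + E2 and 88.3 to 98.5 CPM in Sow. Myoid markers summed to 469 to 711 CPM in M + E2 and 289 to 648 CPM in Sow. Macrophage markers (9 of 9) summed to 321 to 448 CPM in M + E2 and 356 to 444 CPM in Sow, and erythroid markers (5 of 8) to 241 to 603 CPM and 500 to 578 CPM. Epididymal or rete epithelium markers (6 of 8) summed to 54.6 to 88.6 CPM in M + E2 and 165 to 203 CPM in Sow, with DEFB115 at 0 in all libraries of M + E2, Milk and Soy. Of 5 markers of the adrenal cortex, which also makes steroids, 2 were in the table and summed to 13.4 to 18.6 CPM in M + E2 and 14.1 to 19.9 CPM in Sow. The share of reads on the 13 mitochondrial genes was 4.36 to 5.41% in M + E2 and 7.13 to 7.32% in Sow. It was 6.72 to 9.65% in Soy, and Milk (4.49 to 7.74%) and M + G (5.05 to 7.63%) overlapped M + E2. The part of these cells and of the mitochondrial reads in the lower members was not tested.

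Markers of fetal type or progenitor Leydig cells (7 of 7) summed to 589 to 608 CPM in M + E2 and 271 to 445 CPM in Sow. The M + E2 sums lay within the ranges of Milk (470 to 814 CPM), Soy (385 to 775 CPM) and M + G (561 to 727 CPM). In M + E2 against Sow 1 of the 7, NES, was called as higher (1.66, SE 0.32, adjusted p = 0.0355, edgeR), beside 5.0% of all genes called. At an unadjusted p below 0.05, 2 of the 7 were higher and 0 lower, beside 33.8% of all genes in either direction. NES, an intermediate filament gene of stem and progenitor cells and also of vessels, measured 31.5, 14.3 and 37.3 CPM in Sow and 109, 127 and 105 CPM in M + E2. It was also 99.4 to 124 CPM in M + G, 59.4 to 104 CPM in Milk and 45.9 to 108 CPM in Soy. The summed endothelial markers were 613 to 808 CPM in M + E2 and 260 to 412 CPM in Sow. They were 494 to 1113 CPM in Milk, 424 to 1224 CPM in Soy and 650 to 775 CPM in M + G, and their part in the level of NES was not tested. PDGFRA and NR2F2, both of the mesenchyme that Leydig cells come from, differed by 0.27 and 0.55 (adjusted p = 0.419 and 0.126), and DLK1 by 0.29 (0.769).

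Of 116 other genes around steroid synthesis, 103 could be tested, and 5 were called in M + E2 against Sow, beside the 5.0% of all genes. Among the other steroid enzymes, 3 of 18 tested were called as lower and 0 as higher, with a list median of −0.62. All 3 belong to the 17-beta-hydroxysteroid dehydrogenase family and are known also for work outside steroids. HSD17B4, a peroxisomal enzyme of fatty acid oxidation, had 2331, 2881 and 1984 CPM in Sow and 1092, 999 and 905 CPM in M + E2 (−1.18, SE 0.28, adjusted p = 0.0381). HSD17B7, an enzyme of cholesterol synthesis, had 28.4, 101 and 40.7 CPM and 14.7, 16.2 and 11.5 CPM (−1.35, SE 0.32, adjusted p = 0.0381). HSD17B12, an enzyme of fatty acid elongation, had 221, 400 and 204 CPM and 89.3, 96.4 and 104 CPM (−1.21, SE 0.29, adjusted p = 0.0391). The libraries of M + E2 lay below those of Sow for all 3, where 62.3% of all genes had a gap in either direction (without Sow 2). Without any 1 of M + E2 1, M + E2 2 and M + E2 3, 0 of the 103 were called, and over the other alternatives 5 to 26 were. DESeq2 called 13 of the 103 (8.80% of all genes) and the exact test 14 (12.6% of all genes). The 26 were called with Sow 2 in place of the unnumbered Sow library (18.4% of all genes).

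Aromatase (CYP19A1), which turns androgens into estrogens, did not pass but was low in M + E2. It had 3818, 5243 and 4337 CPM in Sow and 2200, 1815 and 1776 CPM in M + E2 (−1.14, 95% interval −1.91 to −0.38, adjusted p = 0.0575). The Milk libraries had 4552, 1797 and 3718 CPM, and Soy and M + G ranged from 2816 to 4557 CPM. The pig carries near-identical copies of this gene, and how reads were divided among them was not determined. CYP19A1 was called with Sow 2 put back (−1.21, adjusted p = 0.0124), by DESeq2 (0.0103) and by the exact test (3.92e-08). SULT2A1, which sulfates dehydroepiandrosterone, had 506.6 to 784 CPM in Sow and 226 to 290.5 CPM in M + E2 (−1.01, adjusted p = 0.0586). It was also 255 to 554 CPM in Milk, 219 to 417 CPM in Soy and 242 to 337 CPM in M + G. In M + E2 against Sow 0 of 5 tested genes of steroid sulfation were called, with 2 lower at an unadjusted p below 0.05 (33.8% of all genes in either direction). SULT1E1, the estrogen sulfotransferase, was at 0.256 to 3.83 CPM in M + E2 and 0.404 to 0.958 CPM in Sow, and at 28.2 CPM in Milk 2 and 33.6 CPM in Soy 3. HSD11B1, which regenerates active glucocorticoid, differed by −0.72 (adjusted p = 0.131), and HSD17B1 and SRD5A2 were at 0.895 to 2.76 CPM and 0.289 to 1.62 CPM over all libraries.

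Of 5 tested genes of electron supply other than FDX1 and CYB5A, 0 were called in M + E2 against Sow. Below an unadjusted p of 0.05 there was 1 (33.8% of all genes), and the list median was −0.11. FDXR, which feeds FDX1, had 369 to 446 CPM in the 2 Sow libraries tested and 270 to 418 CPM in M + E2 (−0.24, 95% interval −0.92 to 0.43, adjusted p = 0.611). POR, which feeds CYP17A1, differed by −0.03 (−0.90 to 0.84, adjusted p = 0.971).

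Of 14 tested genes that bring cholesterol to the mitochondrion, where STAR acts, 0 were called in M + E2 against Sow. At an unadjusted p below 0.05, 3 were lower and 1 higher, beside 33.8% of all genes in either direction. SOAT1, which stores cholesterol as esters, was 287 to 388 CPM in the Sow libraries tested and 111 to 200 CPM in M + E2 (−1.19, 95% interval −1.99 to −0.40, adjusted p = 0.0571), and VDAC1, a channel of the outer mitochondrial membrane, differed by −0.58 (adjusted p = 0.0595). SCARB1, the receptor for high-density lipoprotein, differed by −0.04 (adjusted p = 0.962) and TSPO by −0.61 (0.462).

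In LH and cAMP signalling, 1 of 23 tested genes was called in M + E2 against Sow, beside 5.0% of all genes, and it was higher. At an unadjusted p below 0.05, 7 were higher and 1 lower, beside 33.8% of all genes in either direction. PDE4A, which breaks down cAMP, had 8.88, 7.16 and 6.71 CPM in Sow and 20.5, 20.1 and 15.9 CPM in M + E2 (1.20, SE 0.27, adjusted p = 0.0374). It was also 11.97 to 17.49 CPM in Milk, 11.31 to 19.94 CPM in Soy and 14.24 to 15.79 CPM in M + G. All libraries of these diets lay above those of Sow. Without Sow 2, 31.0%, 37.3% and 53.9% of all genes had a gap from Sow in Milk, Soy and M + G, in either direction. The ranges of Milk and Soy overlapped that of M + E2, and that of M + G ended just below it. PDE8B, another cAMP phosphodiesterase, and GNAS, the stimulatory G protein behind the LH receptor, both differed by 0.81 (adjusted p = 0.0489 and 0.0440) and stayed under the 2-fold limit. PDE8B had the lowest p of the 103 in M + E2 against Milk (0.83, adjusted p = 0.186). GNAS had the lowest in M + G against Milk (0.48, adjusted p = 0.940) and against Soy (0.89, adjusted p = 0.458).

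Of the transcription factors of steroidogenic cells, 0 of 18 tested were called in M + E2 against Sow. At an unadjusted p below 0.05, 7 were higher and 2 lower, beside 33.8% of all genes in either direction. NR5A1, the factor that turns on most genes of steroid synthesis, measured 286 to 354 CPM in M + E2 and 236 to 266 CPM in the Sow libraries tested (0.30, 95% interval −0.41 to 1.00, adjusted p = 0.550). The list of hormone receptors and ligands had 20 tested genes. Its 1 called gene, beside 5.0% of all genes, was NES, which is neither a receptor nor a ligand. The estrogen receptor ESR1 differed by 0.05 (−0.51 to 0.60, adjusted p = 0.916) and ESR2 by 0.49 (0.528). RXFP2, the receptor for INSL3, measured 1.48 to 15.1 CPM in Sow and 1.30 to 4.69 CPM in M + E2 (−1.75, −4.47 to 0.97, adjusted p = 0.343).

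In the other 9 comparisons 0 of the 103 genes were called by the quasi-likelihood test. Between 1 and 27 were below an unadjusted p of 0.05, beside 2.44% to 23.6% of all genes. DESeq2 called 1 of them in M + G against Sow, Soy against Sow, Milk against Sow and M + E2 against M + G, and 3 in M + E2 against Soy. Over the whole table it called 343, 34, 30, 16 and 143 genes in these comparisons. The exact test called 4 in M + G against Sow, 1 in M + E2 against Milk, 3 in M + E2 against Soy and 2 in M + E2 against M + G. Over the whole table the exact test called 955, 92, 203 and 99 genes there.

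**Figure D5:**
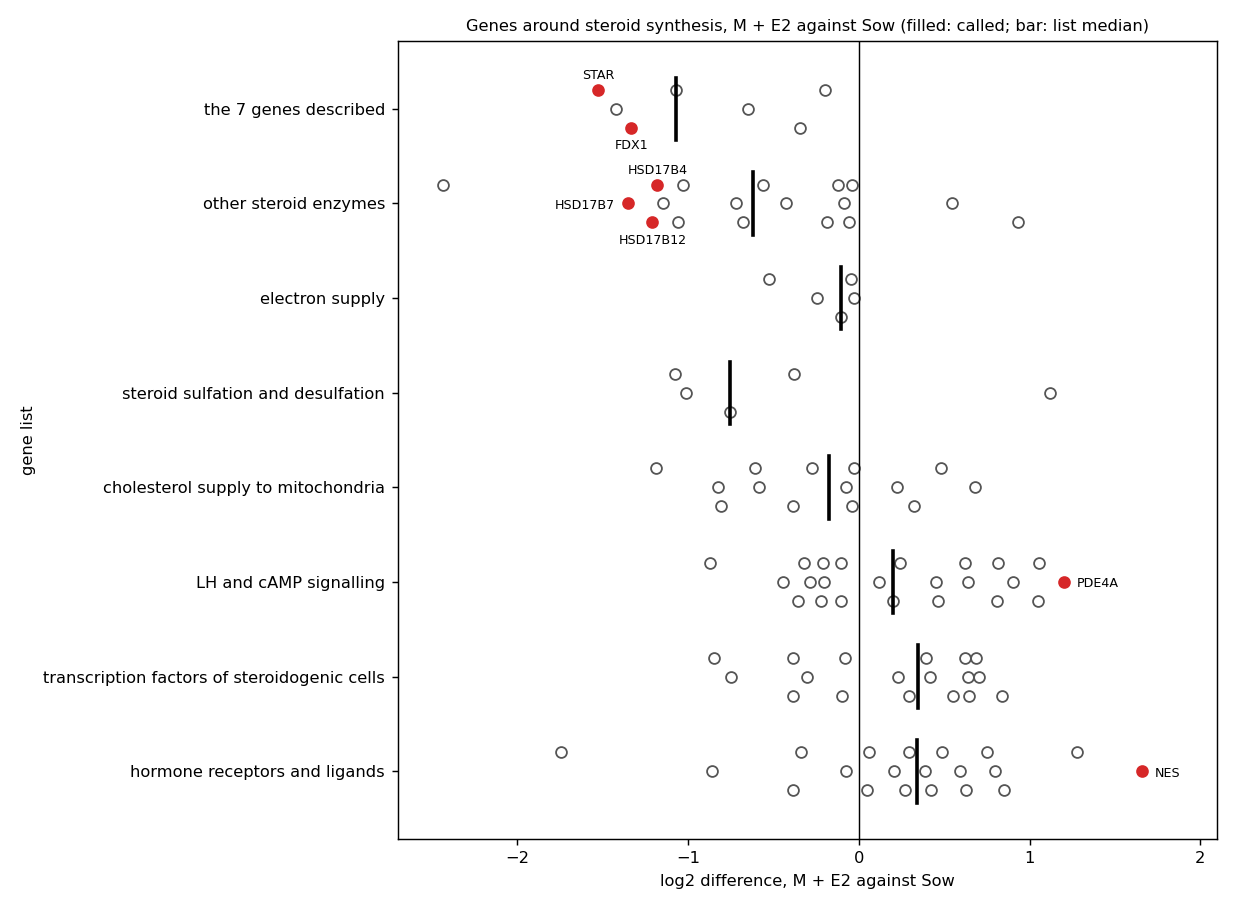
Log2 difference of M + E2 from Sow (horizontal axis) for the 7 members and for the tested genes of 7 lists around steroid synthesis (rows), 1 point per gene; filled points were called and bars mark list medians. The members' median is −1.07, that of the other steroid enzymes −0.62, and the filled points are STAR, FDX1, HSD17B4, HSD17B7 and HSD17B12 on the lower side and PDE4A and NES on the higher.

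The genes most like the 7 members, by correlation with the mean of their standardized log2 CPM over the 15 libraries, were RDH11 (r = 0.965), UQCC1 (0.965), POLDIP2 (0.963), TXN2 (0.961) and ACADL (0.958), out of 12964 genes ranked. RDH11, a retinol dehydrogenase, had 985 to 1072 CPM in M + E2 and 1624 to 1896 CPM in Sow. UQCC1 and TXN2 encode mitochondrial proteins, as ACADL does for a fatty acid dehydrogenase. The same 5 led without Sow 2, and 2 of them led after each diet's mean was taken out, where RDH11 kept r = 0.969. The libraries share depth and diet, and the members took part in the measure that ranked these genes.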

How the data were processed

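RNA from whole testis was sequenced in 15 libraries. The authors trimmed single-end reads, mapped them with CLC Genomics Workbench to a curated pig gene library and the remainder to the Ensembl pig genome, and deposited raw counts per gene. Whether these counts hold all reads, and whether strand was used, is not given in the sources used here. Overlapping genes may therefore share reads. The table was read as deposited: whole numbers with 6097552 to 9488579 reads per library (median 8198038), 0 identical libraries and 0 columns unused. More reads give smaller counting error, and the 7 genes and LHCGR and SRD5A1 had at least 525 reads in each library. Columns were assigned to diets by name, and 1 column each of Sow and Soy carries no number.

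The tools were edgeR 4.0.16 and DESeq2 1.42.0, under R 4.3.3. One quasi-likelihood fit of the 5 diets over 14 libraries (without Sow 2) used TMM normalization and filterByExpr at a minimum count of 10, which kept 15634 genes. Adjusted p-values in the text are from edgeR unless DESeq2 is named. Intervals are 95% intervals of the fit. CPM used TMM over all 15 libraries, and log2 CPM a prior count of 1. The test was run on simulated counts that gave every gene and diet the same spread. The spread in these data differs between genes and diets, so that run does not show how the test performs here. The members, lists and tests were chosen with earlier results of these data known. LHCGR and SRD5A1 were named through Ensembl identifiers, and positions are those of RefSeq on Sscrofa11.1 by symbol. Genes named beside the members were those called, those of lowest p in a comparison with Sow or Milk, and a list of receptors, enzymes and Leydig cell genes, of which STS was not analysed here and some genes are not reported here. SOAT1 and VDAC1, of lowest p in M + E2 against M + G and against Soy, were added after their values were seen.

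Alternatives were all 3 Sow libraries, the 2 diets compared alone, other filters, DESeq2 size factors, the DESeq2 Wald test, edgeR's exact test, no minimum fold, each library left out, and the replicate number as a block. The numbers are in the labels, and nothing there says what they share. Deviations from diet means of same-numbered Milk and M + G libraries had r = 0.233, 0.510 and 0.425, and those of M + E2 with Milk −0.34 to −0.06. Other same-numbered pairs ran from −0.48 (Milk 2 with Soy 2) to 0.50 (Sow 3 with Soy 3). Libraries of different numbers were not compared, so these values do not show whether the numbers pair piglets.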

Additional observations from a re-analysis of the deposited data

How the results depend on the processing

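Of 2 members called in M + E2 against Sow, the count became 4 with all 3 Sow libraries, with the 2 diets fitted alone, by DESeq2's Wald test and by edgeR's exact test, and ran from 0 to 4 over left-out libraries, 0 being without M + E2 1, M + E2 2 or M + E2 3. Where a Sow library was left out, Sow 2 took its place. Elsewhere the count was 0 and became 1 in M + G against Sow with all 3 Sow libraries (0 to 1 over left-out libraries), in M + E2 against Milk by DESeq2 (0 to 1 over left-out libraries), in M + E2 against Soy by DESeq2, the exact test and with no filter, and in M + E2 against M + G by DESeq2 and the exact test. The genes most like the members shared 2 of 5 after each diet's mean was taken out. Counts of the 103 pathway genes were 5 in M + E2 against Sow and 0 elsewhere. They reached at most 26 in M + E2 against Sow (18.4% of all genes), 13 in M + G against Sow (13.0%) and 9 in M + E2 against Milk (8.04%). The most was 3 in M + E2 against Soy (0.915% by DESeq2, 1.39% by the exact test) and 2 in M + E2 against M + G (0.674%). It was 1 in Milk or Soy against Sow (30 and 34 genes over the whole table). Over all genes, the 781 called in M + E2 against Sow became 2767 with all 3 Sow libraries, 1846 with the 2 diets alone, 1376 by DESeq2 and 1887 by the exact test, and ran from 6 without any M + E2 library to 3324 without Sow 3. The cause was not tested.

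Signs changed for differences that were not called under any setting run, except RXFP2, which the exact test called (−1.74, adjusted p = 0.0395). With all 3 Sow libraries, M + E2 against Sow gave 0.12 for LHCGR, 0.17 for POR and 0.0797 for SCARB1. With no filter it gave 0.0411 for POR and 0.0263 for SCARB1, and STAR was 0.0187 in M + G and 0.00512 in Milk against Sow. STAR in Milk against Sow was 0.0148 with the 2 diets alone and by the exact test. Over left-out libraries, M + E2 against Sow ran from −0.16 to 0.27 for LHCGR, −0.20 to 0.21 for POR, −0.26 to 0.20 for SCARB1, −0.14 to 0.36 for ESR1, −2.61 to 0.67 for RXFP2, −0.53 to 0.21 for HSD17B1 and −1.06 to 1.88 for SULT1E1. M + E2 against Milk ran from −0.48 to 0.15 for CYP17A1, −0.0451 to 0.31 for HSD17B3 and −0.0744 to 0.47 for LHCGR. HSD17B3 in M + E2 against Soy ran from −0.0282 to 0.65 and INSL3 in M + E2 against M + G from −0.33 to 0.0821. STAR ran from −0.14 to 0.0200 in M + G against Sow, −0.52 to 0.27 in Milk against Sow, −0.31 to 0.48 in M + G against Milk and −0.00993 to 0.78 in Soy against Milk.

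With the replicate block over 11 numbered libraries outside Sow, 0 members were called in each of the 6 comparisons it allows, as without it, and it changed no other call among the genes named. No block could be fitted for Sow, which shares too few numbers without Sow 2. With 2 or 3 libraries per diet, differences such as those of CYB5A have intervals of about 2 log2 units, so a 2-fold difference that was not called is not shown to be absent.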
